A study of Mus musculus with 6 samples.

Results

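The genes described here encode 10 proteins of the intercalated disc, the structure that joins cardiomyocytes end to end. The rule that picks them is a list of gene names, drawn up with earlier results of these data known. Their transcript rows were summed per gene in a table of embryonic mouse heart RNA, in which the 10 genes were found among 26199 genes, and all 10 were among the 13262 genes with a value of 1 FPKM (fragments per kilobase of transcript, scaled to the mapped fragments of the library) or more in 3 or more of the 6 libraries. Hearts were collected at embryonic day 12. The 3 control libraries (Ctrl) came from Mrps5 fl/fl embryos, and the 3 knockout libraries (cKO) from Mrps5 fl/fl; cTNT-Cre littermates. Both groups carry the floxed Mrps5 alleles, so that Cre is present in the cKO embryos and absent from the controls, and a control with Cre alone was not analysed here. Mrps5 encodes a protein of the mitochondrial ribosome. The Cre is driven by the cardiac troponin T promoter, which is active in cardiomyocytes, so the other cells of the heart keep the gene. Per the study's text, each library was made from 5 hearts, and it is the whole heart, with all its cell types, that was measured.

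At the intercalated disc, 3 kinds of junction lie side by side. In adherens junctions, N-cadherin (Cdh2) binds the same protein on the neighbouring cell and is tied through beta-catenin or plakoglobin to alpha-catenin, which holds actin. In desmosomes, the cadherins desmoglein-2 (Dsg2) and desmocollin-2 (Dsc2) are tied through plakoglobin (Jup) and plakophilin-2 (Pkp2) to desmoplakin (Dsp), which holds the intermediate filament desmin. Gap junctions are channels built of connexins, with connexin 43 (Gja1) the main one of working ventricular muscle, and ZO-1 (Tjp1) is a scaffold that binds the tail of connexin 43. Inherited defects of the desmosomal genes cause arrhythmogenic cardiomyopathy, and alpha-T-catenin (Ctnna3) is found in heart and testis and can bind plakophilin-2. In the embryo these proteins are spread along the whole cell border and move to the cell ends only after birth.

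In hearts with the cardiomyocyte deletion, Ctnna3 was the member that differed most, at 0.614 times its control level, while the related alpha-E-catenin gene Ctnna1 stood at 1.15 times its control level. The desmosomal plaque genes Pkp2 and Dsp were at 0.850 and 0.854 times their control levels. Gja1, Jup, Dsg2, Cdh2 and Tjp1 had overlapping values in both groups. By an unadjusted p under 0.05, here called the unadjusted line, 2 of the 10 members passed, Ctnna3 and Pkp2, beside 15.0% of all genes tested. Both were lower in cKO, a direction in which 9.43% of all genes tested passed. None of the 10 had a Benjamini-Hochberg adjusted p under 0.05 in limma, a threshold that 0.0829% of all genes tested passed, which is 11 genes. Without cKO replicate 3, in which Mrps5 was not reduced, 4 of the 10 members passed the unadjusted line, with Gja1 and Dsc2 added, where 2020 of the 13262 genes did. Relative to the cardiomyocyte markers of each library, 5 passed it, Ctnna3 lower and Gja1, Jup, Ctnna1 and Tjp1 higher, on a scale on which 5261 of the 13262 genes did and the median of all genes was 0.297. The median log2 fold change of the members was -0.11, with 7 negative and 3 positive, and that of all genes tested was -0.02. Fold changes are cKO over Ctrl on log2(FPKM + 1), which understates the change of low genes. In whole hearts, fewer cardiomyocytes and less RNA per cardiomyocyte cannot be told apart.

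Properties of the libraries bear on these values. Mrps5 itself was at 9.65, 11.4 and 10.4 FPKM in the controls and at 5.28, 7.41 and 10.4 FPKM in the cKO libraries, so the library labelled cKO replicate 3 stood at the control level. The log2 fold change of Mrps5 was -0.44 (SE 0.194, limma adjusted p = 0.339), and it was -0.23 without cKO replicate 1 and -0.66 (limma adjusted p = 0.0693) without cKO replicate 3. The 8 cardiomyocyte markers summed to 6880 to 8200 FPKM in Ctrl and 5637 to 6830 FPKM in cKO, with no overlap. Of the 8, 5 passed the unadjusted line, all lower, a direction in which 9.43% of all genes tested passed. The groups of Actc1, Myh6 and Nkx2-5 overlapped. Erythroid genes held 10.3% to 12.0% of all FPKM in Ctrl, 21.1% in cKO replicate 1, 9.72% in cKO replicate 2 and 20.1% in cKO replicate 3. The summed markers of epicardium, endothelium and mesenchyme overlapped between the groups, macrophage markers summed to 3.97 to 6.82 FPKM, and the neural crest marker Sox10 was at no more than 0.736 FPKM. The part of these differences in the results was not tested, beyond the values without cKO replicate 3, relative to the cardiomyocyte markers and after a rescaling without erythroid genes, given where they change the call of a member.

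**Figure D1:**
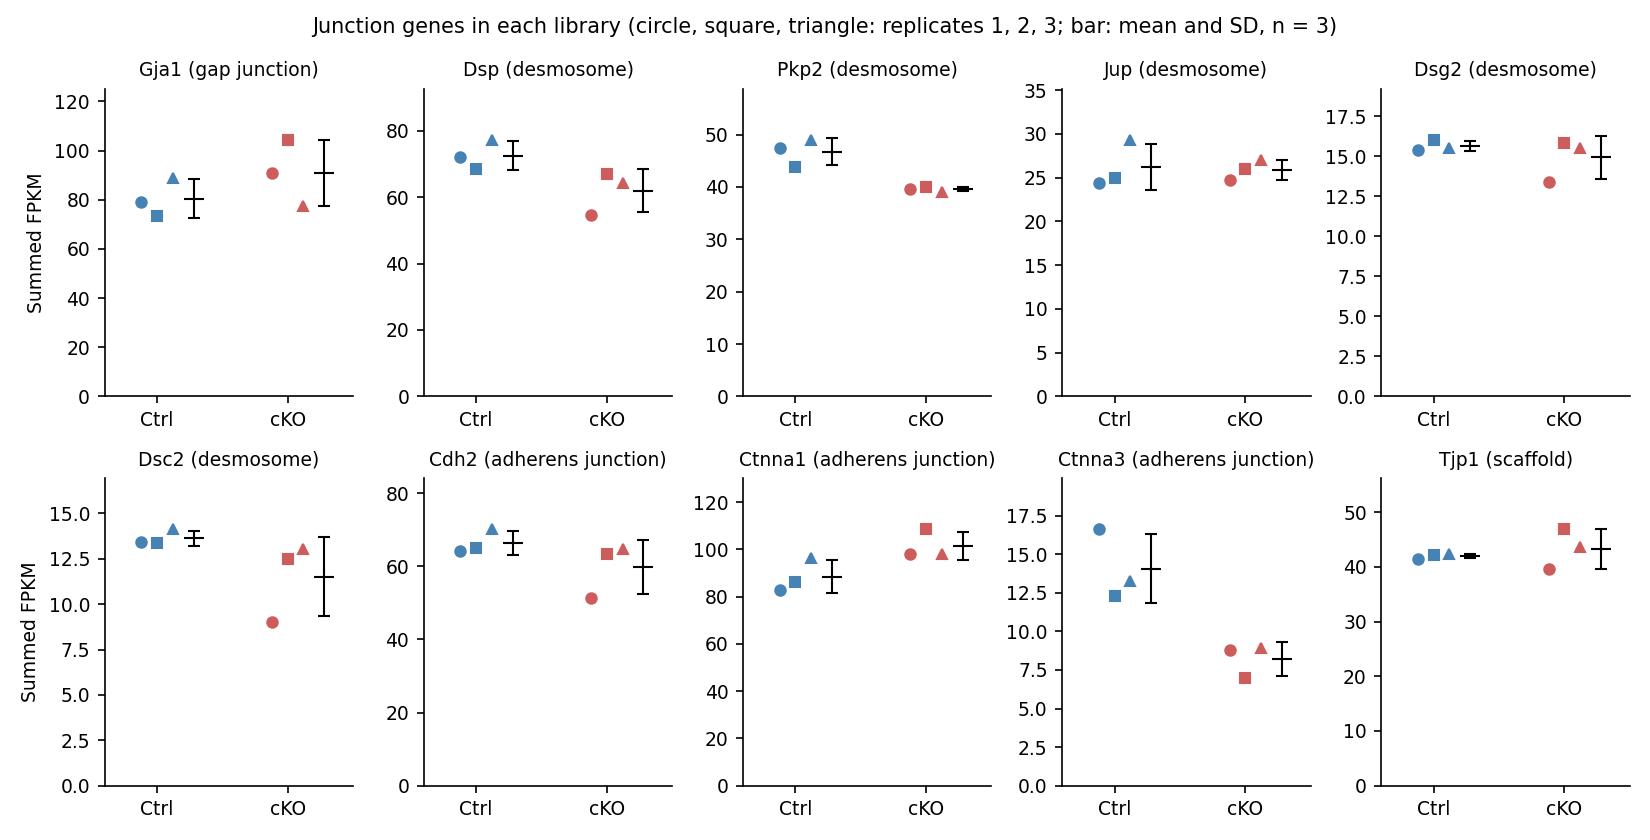
Summed FPKM of each of the 10 junction genes (vertical axes, from 0, on a scale of their own) in the 3 Ctrl and 3 cKO libraries. Circles, squares and triangles are replicates 1, 2 and 3, and the bar is the mean with the SD. The Ctnna3 values are 12.3 to 16.6 FPKM in Ctrl and 6.95 to 8.95 FPKM in cKO, and the Pkp2 values 43.9 to 48.9 FPKM and 39.1 to 39.9 FPKM.

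In control hearts the highest member was the alpha-catenin gene Ctnna1, and the desmosomal cadherins were among the lowest. FPKM are per length, so levels can be compared between genes. Ctnna1 was highest at 88.5 ± 6.92 FPKM (SD, n = 3), followed by Gja1 at 80.4 ± 7.98 FPKM, Dsp at 72.5 ± 4.38 FPKM and Cdh2 at 66.4 ± 3.23 FPKM. Each of these 4 overlapped with its neighbour in the order. Pkp2 at 46.7 ± 2.59 FPKM, Tjp1 at 42.0 ± 0.439 FPKM and Jup at 26.2 ± 2.65 FPKM each lay apart from the neighbours above and below. Dsg2 at 15.6 ± 0.325 FPKM, Ctnna3 at 14.1 ± 2.25 FPKM and Dsc2 at 13.6 ± 0.411 FPKM closed the order, with overlap between neighbours. The plaque protein genes Dsp and Pkp2 were therefore at several times the level of the desmosomal cadherins they are tied to.

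Among the members, the largest difference was that of an adherens junction gene. Ctnna3, which encodes alpha-T-catenin, was at 16.6, 12.3 and 13.3 FPKM in the controls and at 8.77, 6.95 and 8.95 FPKM in the cKO libraries. Every cKO library lay below every control. Its log2 fold change was -0.70 (SE 0.135, 95% interval -1.01 to -0.395), with an unadjusted limma p of 0.000725 and an adjusted p of 0.106. Without cKO replicate 3, the library with Mrps5 at the control level, Ctnna3 had a value of -0.76 (limma adjusted p = 0.0478). Taken relative to the cardiomyocyte markers of the same library, it was -0.39 (limma adjusted p = 0.0865), beside a median of 0.297 over all genes on that scale.

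Ctnna1, which encodes the alpha-catenin used in most tissues, went the other way. It was at 82.9, 86.3 and 96.2 FPKM in Ctrl and at 98.1, 108 and 98.2 FPKM in cKO. The lowest cKO value lay above the highest control, by a margin smaller than the range within either group. This is a log2 fold change of 0.20 (SE 0.091), with an unadjusted p of 0.0598 and an adjusted p of 0.354 in limma. Relative to the cardiomyocyte markers it was 0.52 (limma adjusted p = 0.0488), and 0.297 of that is the shift of the median gene. After the rescaling without erythroid genes it was 0.22 (unadjusted p = 0.0295 in limma), and without Ctrl replicate 3 it was 0.26 (unadjusted p = 0.0331 in limma). The third alpha-catenin gene, Ctnna2, known from neurons, was listed at 0.824 to 1.25 FPKM in all 6 libraries.

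The balance of the alpha-catenin genes differed between the groups with no overlap. Ctnna3 made up 16.5%, 12.3% and 12.0% of the summed alpha-catenin FPKM in the controls and 8.11%, 5.96% and 8.29% in the cKO libraries. The summed FPKM of the 3 genes was 101, 99.8 and 110 in Ctrl and 108, 117 and 108 in cKO, and these ranges overlapped. Hence the lower Ctnna3 was not accompanied by a lower sum, most of which is Ctnna1.

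Cdh2, the N-cadherin gene, was at 64.1, 65.0 and 70.1 FPKM in Ctrl and at 51.2, 63.4 and 64.8 FPKM in cKO. The value of cKO replicate 1 was well below the others, and cKO replicate 3 lay inside the control range. Cdh2 thus had a log2 fold change of -0.15 (SE 0.106, limma adjusted p = 0.535), and -0.05 without cKO replicate 1. The ratio of Ctnna1 to Cdh2 was 1.29, 1.33 and 1.37 in Ctrl and 1.91, 1.71 and 1.51 in cKO, with no overlap.

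Among 11 partners of the adherens junction, all of them tested, 1 passed the unadjusted line, where 15.0% of all genes tested did. This was Vasp, an actin filament elongation factor, at 36.3 to 37.0 FPKM in Ctrl and 40.8 to 46.4 FPKM in cKO, with a log2 fold change of 0.25 (SE 0.0797, limma adjusted p = 0.226). The beta-catenin gene Ctnnb1 (log2 fold change 0.01), the p120-catenin gene Ctnnd1 (-0.15) and the vinculin gene Vcl (-0.01) had unadjusted p-values of 0.907, 0.121 and 0.889 in limma. Ctnnb1 was at 132 to 154 FPKM in Ctrl and 135 to 169 FPKM in cKO, above every member.

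The transcript rows of Ctnna3 differed in direction. Of its 3 rows, the main one (ENSMUST00000105440) was at 15.4, 11.3 and 12.6 FPKM in Ctrl and 7.08, 5.05 and 7.66 FPKM in cKO. Its log2 fold change was -0.90 (SE 0.178, limma unadjusted p = 0.00228, adjusted p = 0.31 over 20370 rows). A second row, a model of the coding part (ENSMUST00000075099), was at 1.23, 0.969 and 0.632 FPKM in Ctrl and at 1.68, 1.90 and 1.23 FPKM in cKO, with a log2 fold change of 0.43 (SE 0.187, limma unadjusted p = 0.0631). The ratio of the first row to the second was 12.5, 11.7 and 19.9 in the controls and 4.21, 2.65 and 6.23 in the cKO libraries. Both rows code for the same 895 codons in the GENCODE M21 annotation, and the second, with 2688 bases, holds hardly any bases beyond them, so nearly all of its reads also match the main row and the split between the rows is the estimate of the authors' software. The third row (ENSMUST00000105441), which begins upstream of the others, was listed at 0 in 4 libraries and at 0.0613 and 0.0562 FPKM in Ctrl replicate 3 and cKO replicate 3.

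**Figure D2:**
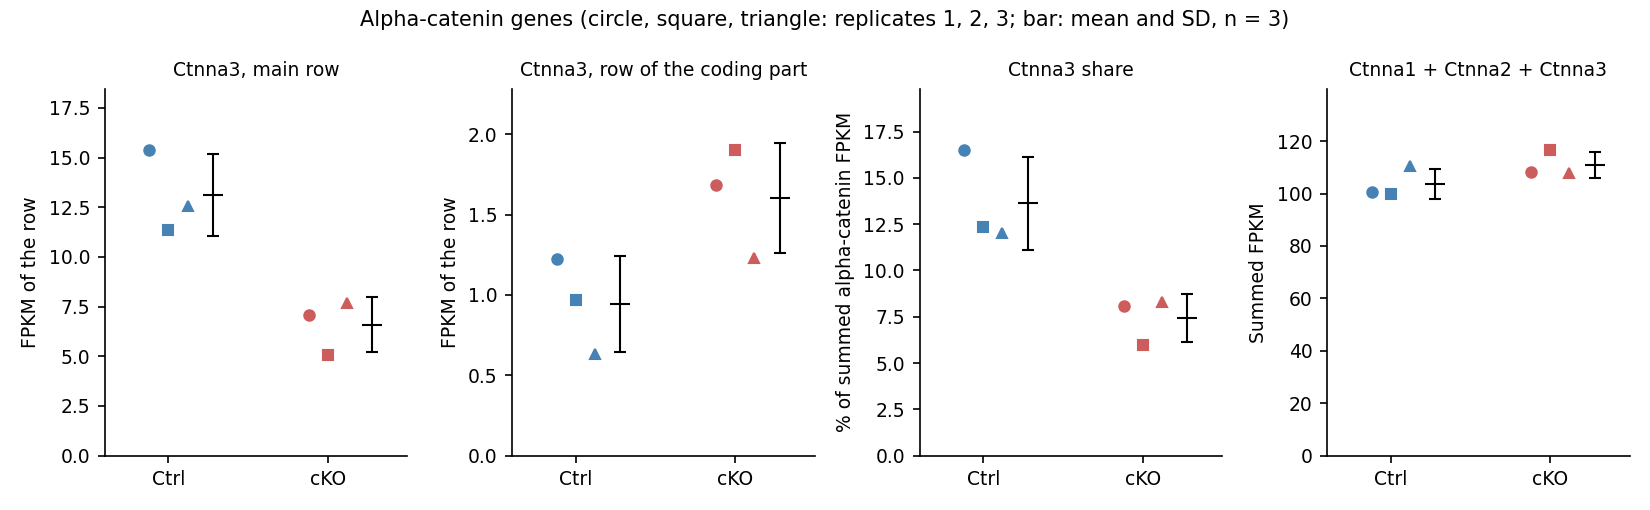
FPKM of the main Ctnna3 row and of the row of its coding part, the share of Ctnna3 in the summed FPKM of Ctnna1, Ctnna2 and Ctnna3 (in %), and that sum (in FPKM), in each library. Symbols are replicates 1, 2 and 3 and the bar is the mean with the SD. The share is 12.0% to 16.5% in Ctrl and 5.96% to 8.29% in cKO, while the sums overlap.

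The start sites of the upstream and the main Ctnna3 row are unlike in sequence, and they are shown because the row that begins at one of them held 88.4% of the Ctnna3 signal over the 6 libraries, and 72.6% to 85.6% in cKO. Both lie on the plus strand of chromosome 10 in RefSeq's GRCm38.p6 windows, here the 250 bases that end at the start. The window at chr10:63429848-63430097 leads to the upstream row and the window at chr10:63457261-63457510 to the main row. Capitals mark a GC box (GGGCGG on either strand) in the first and a TEAD motif (CATTCC on either strand) in the second.
Ctnna3 upstream start: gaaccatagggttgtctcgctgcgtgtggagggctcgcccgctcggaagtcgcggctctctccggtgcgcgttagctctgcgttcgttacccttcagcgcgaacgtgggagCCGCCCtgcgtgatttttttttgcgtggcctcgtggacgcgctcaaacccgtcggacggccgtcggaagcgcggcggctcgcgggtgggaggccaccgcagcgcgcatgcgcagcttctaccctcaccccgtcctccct
Ctnna3 main start: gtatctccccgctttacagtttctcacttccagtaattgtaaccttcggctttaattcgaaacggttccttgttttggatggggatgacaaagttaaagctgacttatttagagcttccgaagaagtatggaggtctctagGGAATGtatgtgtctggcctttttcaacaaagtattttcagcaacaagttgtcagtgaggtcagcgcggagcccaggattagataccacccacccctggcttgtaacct
The first window holds 36 CG dinucleotides and 67.6% GC, and the second 7 CG dinucleotides and 44.8% GC, beside medians of 6 and 52.4% over 32817 windows of the same length. A GC box is found in 32.7% of these windows and the TEAD motif in 12.6%. The letters of a TATA box (TATAAA) were found in neither window, though they are in 12.4% of all windows and in the other Ctnna3 window of RefSeq (chr10:63820805-63821054), which lies downstream of both. A GATA motif (AGATAA) was also found in neither. The same was true of the AP-1 motif (TGAGTCA). An E-box (CACGTG) was in neither window, and no cyclic AMP response element (TGACGTCA), MEF2 motif or CArG box was found. These matches describe the letters on both strands and say nothing of binding.

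All 5 desmosomal members had negative log2 fold changes, as did 7293 of the 13262 genes, and 1 of the 5 passed the unadjusted line, beside 15.0% of all genes tested. Relative to the cardiomyocyte markers they were at 0.08 to 0.30, where the median of all genes was 0.297. Pkp2, which encodes the plaque protein plakophilin-2, was at 47.5, 43.9 and 48.9 FPKM in Ctrl and at 39.6, 39.9 and 39.1 FPKM in cKO. The cKO values were nearly equal and all below the controls. This gives a log2 fold change of -0.23 (SE 0.0776, 95% interval -0.412 to -0.0563), with an unadjusted p of 0.016 and an adjusted p of 0.231 in limma. Without cKO replicate 3 it was -0.23 with an unadjusted p of 0.0401 in limma. The call was lost without Ctrl replicate 3 (-0.20, unadjusted p = 0.0631 in limma), and relative to the cardiomyocyte markers the value was 0.08.

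Dsp, which links the plaque to desmin, was at 72.0, 68.4 and 77.1 FPKM in Ctrl and at 54.7, 66.9 and 64.2 FPKM in cKO. The groups did not overlap, and cKO replicate 1 was the lowest. Its log2 fold change was -0.23 (SE 0.0997), with an unadjusted p of 0.0509 and an adjusted p of 0.335 in limma. It was -0.14 without cKO replicate 1 and -0.29 (unadjusted p = 0.0294 in limma) without cKO replicate 2, and 0.09 relative to the cardiomyocyte markers.

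Dsc2, a desmosomal cadherin, was at 13.4, 13.4 and 14.1 FPKM in Ctrl and at 9.01, 12.5 and 13.0 FPKM in cKO. The groups did not overlap, but cKO replicates 2 and 3 lay close under the lowest control. Dsc2 had a log2 fold change of -0.24 (SE 0.132, limma adjusted p = 0.428), and -0.09 without cKO replicate 1. Without cKO replicate 3 it was -0.33 with an unadjusted p of 0.0383 in limma. Dsg2, the other desmosomal cadherin of the heart, was at 15.4, 16.0 and 15.5 FPKM in Ctrl and at 13.4, 15.8 and 15.5 FPKM in cKO, where again cKO replicate 1 alone was low. Its log2 fold change was -0.07 (SE 0.0897, limma adjusted p = 0.774). The main Dsg2 row (ENSMUST00000059787), with 85.2% of the Dsg2 signal, was at 0.02 (SE 0.112, limma unadjusted p = 0.862), and its groups overlapped. A minor Dsg2 row (ENSMUST00000120102), with 11.6% of the Dsg2 signal, was at 2.43, 1.66 and 2.11 FPKM in Ctrl and at 1.49, 1.39 and 1.52 FPKM in cKO, lower in every cKO library, with a value of -0.31 (SE 0.149, limma unadjusted p = 0.0853).

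Jup, whose product plakoglobin serves desmosomes and adherens junctions alike, was at 24.4, 24.9 and 29.3 FPKM in Ctrl and at 24.8, 25.9 and 27.0 FPKM in cKO. The cKO values lay inside the control range. The 95% interval of its log2 fold change ran from -0.227 to 0.201. Relative to the cardiomyocyte markers the log2 fold change was 0.305 (limma unadjusted p = 0.0442), beside a median of 0.297 over all genes. The ratio of Jup to Ctnnb1, its close relative, was 0.185, 0.168 and 0.190 in Ctrl and 0.183, 0.154 and 0.198 in cKO.

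Summed over the 5 desmosomal members, the level was 173, 167 and 185 FPKM in Ctrl and 141, 161 and 159 FPKM in cKO, with no overlap. The ratio of Pkp2 to Dsp was 0.659, 0.641 and 0.634 in Ctrl and 0.724, 0.596 and 0.609 in cKO, so the groups overlapped in it. Of 9 further genes of desmosomes and intermediate filaments, 3 passed the filter on low values and none passed the unadjusted line. Desmin (Des) was at 124, 115 and 153 FPKM in Ctrl and at 111, 127 and 130 FPKM in cKO. The desmosomal genes of skin Pkp1, Pkp3, Dsg3, Dsc1, Dsc3 and Evpl were at no more than 0.533 FPKM in any library.

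**Figure D3:**
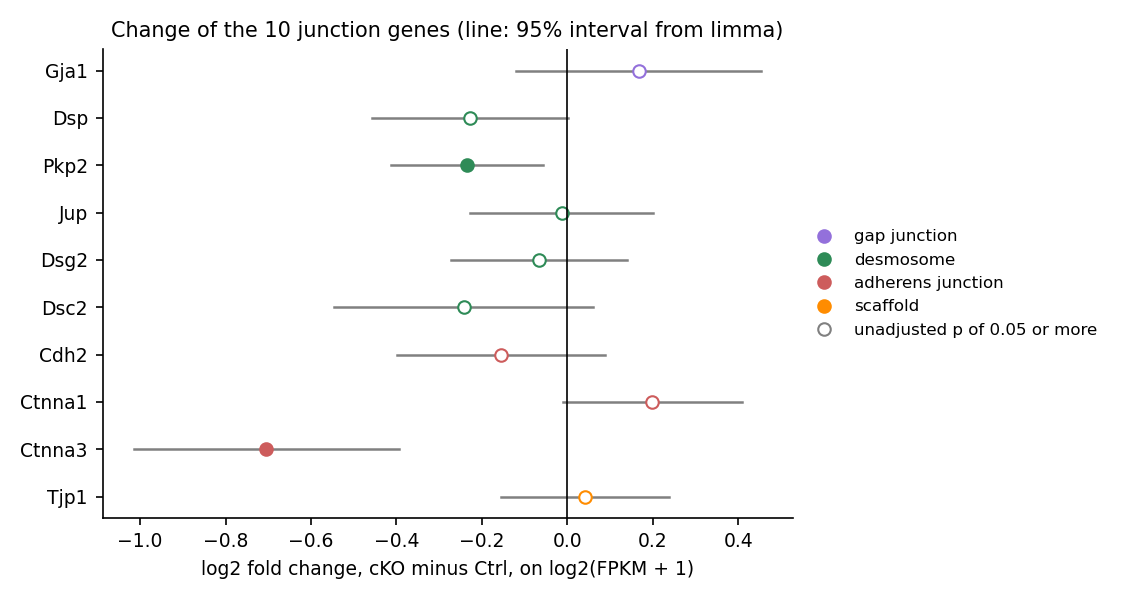
log2 fold change (cKO minus Ctrl, horizontal axis, on log2(FPKM + 1)) of each of the 10 junction genes, coloured by junction. Lines are 95% intervals from limma over 3 Ctrl and 3 cKO libraries, and open circles mark an unadjusted p of 0.05 or more. The intervals of Ctnna3 and Pkp2 lie below 0, and those of the other 8 genes include 0.

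Of desmoplakin, a long and a short transcript row were listed, and the ratio between them did not overlap between the groups. The long row (ENSMUST00000124830, 2883 codons) and the short row (ENSMUST00000127906, 2284 codons) have 24 exons each, start close together and differ by splicing. The long row was at 62.9, 58.5 and 68.0 FPKM in Ctrl and at 45.4, 51.5 and 53.1 FPKM in cKO. All cKO values were lower, with a log2 fold change of -0.33 (SE 0.0925, limma unadjusted p = 0.0116, adjusted p = 0.4 over all rows). The short row was at 9.03, 9.90 and 9.18 FPKM in Ctrl and at 9.29, 15.4 and 11.1 FPKM in cKO, with overlap and a log2 fold change of 0.29 (SE 0.178, limma unadjusted p = 0.156). The ratio of the long to the short row was 6.97, 5.91 and 7.40 in Ctrl and 4.89, 3.35 and 4.81 in cKO, with no overlap. The difference between the rows was not tested, and the split of shared reads between them is the estimate of the authors' software.

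The rows of Pkp2 divided between a coding model and models with a retained intron. The coding model (ENSMUST00000039408), of 795 codons, was at 36.1, 36.0 and 41.0 FPKM in Ctrl and at 33.2, 34.0 and 33.7 FPKM in cKO, with a log2 fold change of -0.16 (SE 0.0751, limma unadjusted p = 0.0787). The larger retained-intron model (ENSMUST00000161342) was at 7.70, 5.64 and 5.11 FPKM in Ctrl and at 4.40, 3.15 and 3.58 FPKM in cKO, with a log2 fold change of -0.59 (SE 0.18, limma unadjusted p = 0.0161, adjusted p = 0.425). Both were below the controls in every cKO library. The unadjusted call of Pkp2 as a gene thus rested in part on the retained-intron row, since the coding row alone did not pass.

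**Figure D4:**
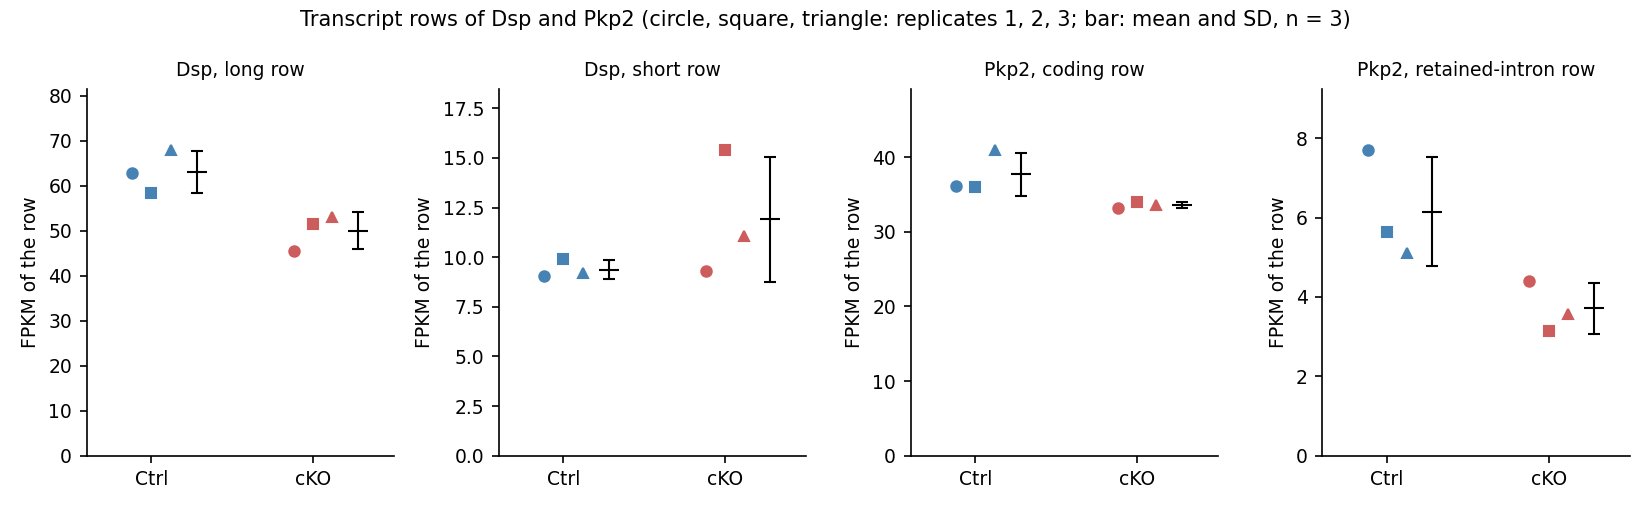
FPKM of the long and short Dsp transcript rows and of the coding and larger retained-intron rows of Pkp2 in each library, each panel from 0 on its own scale. Symbols are replicates 1, 2 and 3 and the bar is the mean with the SD. The long Dsp row and both Pkp2 rows are lower in every cKO library, while the short Dsp row overlaps.

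Over all members, 19 of 28 transcript rows passed the filter, and 4 rows of 4 members had an unadjusted p under 0.05, beside 10.2% of all rows tested. Besides the main Ctnna3 row, the long Dsp row and the retained-intron row of Pkp2, this was a short Gja1 model (ENSMUST00000220194) with 3.81, 3.09 and 3.86 FPKM in Ctrl and 0.231, 2.89 and 1.32 FPKM in cKO, which holds 2.96% of the Gja1 signal and was singled out after its values were seen. No row of a member had an adjusted p under 0.05. The 2 main rows of Dsc2, with 848 and 902 codons, had a ratio of 1.97, 2.43 and 1.53 in Ctrl and 0.686, 2.16 and 2.59 in cKO. Those of Tjp1, with 1685 and 1745 codons, had a ratio of 8.16, 8.04 and 7.34 in Ctrl and 7.69, 7.17 and 7.12 in cKO. In both genes the groups overlapped. Ctnna1, Jup, Cdh2 and Gja1 each had 1 row of at least 10% of the gene.

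The gap junction gene Gja1 was at 79.0, 73.2 and 89.0 FPKM in Ctrl and at 90.7, 104 and 77.3 FPKM in cKO. Replicates 1 and 2 of cKO were above every control and cKO replicate 3 lay within the control range. Gja1 had a log2 fold change of 0.17 (SE 0.125, limma adjusted p = 0.574), and 0.28 (unadjusted p = 0.0477, adjusted p = 0.322 in limma) without cKO replicate 3. It was 0.06 without cKO replicate 2 and 0.10 without Ctrl replicate 2. Relative to the cardiomyocyte markers it was 0.48 (unadjusted p = 0.00933, adjusted p = 0.0649 in limma), where the median of all genes was 0.297. Of the 4 connexins tested, only Gja1 had a positive value in the main fit, though on the marker scale Gja4 (0.04) and Gjc1 (0.01) were also just above 0.

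All 3 of the other connexins tested passed the unadjusted line with lower values in cKO, beside 9.43% of all genes tested, and on the scale of the cardiomyocyte markers Gja5 alone kept a negative value. Gja5, which encodes the connexin 40 of atria and of the trabecular and conducting myocardium, was at 28.3, 27.3 and 30.0 FPKM in Ctrl and at 8.62, 10.5 and 25.6 FPKM in cKO. The library with Mrps5 at the control level, cKO replicate 3, was also the one with Gja5 near the controls. The log2 fold change was -1.04 (SE 0.324, limma adjusted p = 0.214), and -1.49 (limma adjusted p = 0.000476) without that library. Gjc1, which encodes connexin 45 of the early heart, was at 29.3, 30.0 and 30.0 FPKM in Ctrl and at 22.9, 24.8 and 23.8 FPKM in cKO, with a log2 fold change of -0.31 (SE 0.0748, limma adjusted p = 0.154). Gja4, an endothelial connexin gene, had a log2 fold change of -0.28 with an unadjusted p of 0.0436 in limma, and its groups overlapped. It passed the unadjusted line under 6 of 15 alternatives, and did not with no filter on low values (p of 0.0544 in limma) or after the rescaling without erythroid genes (p of 0.0559).

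Gja1 also made up more of the connexin signal in cKO. Its share of the summed FPKM of 7 connexin genes was 53.6%, 52.6% and 55.6% in Ctrl and 69.9%, 71.0% and 57.0% in cKO, where cKO replicate 3 stood just above the highest control. The sum of the 7 genes was 139 to 160 FPKM in Ctrl and 130 to 147 FPKM in cKO.

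Tjp1, the ZO-1 scaffold, was the member with the narrowest spread among controls in relation to its level. It was at 41.5, 42.1 and 42.3 FPKM in Ctrl and at 39.6, 46.8 and 43.6 FPKM in cKO, and the groups overlapped. Its log2 fold change was 0.04 (SE 0.0856), with a 95% interval from -0.155 to 0.237. Relative to the cardiomyocyte markers it was 0.36 (limma unadjusted p = 0.0204), beside a median of 0.297 over all genes. Of 10 scaffold and tight junction type genes, 8 were tested and 2 passed the unadjusted line, where 15.0% of all genes tested did. Dlg1, a scaffold of the membrane-associated guanylate kinase family, was at 26.3 to 29.3 FPKM in Ctrl and 31.3 to 41.2 FPKM in cKO, with a log2 fold change of 0.38 (SE 0.111, limma adjusted p = 0.196). With its most abundant transcript alone, Dlg1 was at 0.23 (SE 0.272, limma unadjusted p = 0.423). The cingulin relative Cgnl1 had a log2 fold change of -0.26 (SE 0.096, limma adjusted p = 0.273), and did not pass the unadjusted line without cKO replicate 3 (-0.22, p of 0.0776 in limma). Relative to the cardiomyocyte markers, Dlg1 was at 0.69 (limma adjusted p = 0.0245) and Vasp at 0.56 (limma adjusted p = 0.0391). On that scale 918 of 13262 genes had an adjusted p under 0.05, and the median of all genes was 0.297. Cxadr, the coxsackievirus and adenovirus receptor, which can bind ZO-1, was at 19.0 to 23.4 FPKM in Ctrl and 22.6 to 27.4 FPKM in cKO.

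Muscle proteins that gather at the disc form the last class. Of 10 listed, 9 were tested and 6 passed the unadjusted line, beside 15.0% of all genes tested, and all 6 were lower in cKO, although Xirp1 (0.02) and Ank3 (0.04) turned to just above 0 relative to the cardiomyocyte markers. On that scale Sorbs2 alone of the 6 was still lower past the unadjusted line (-0.42, limma unadjusted p = 0.0091), beside Nrap at -0.30 (p of 0.0665), Bves at -0.09 and Lmo7 at -0.08. Sorbs2, an adaptor of the actin and Z-disc region, was at 199, 177 and 191 FPKM in Ctrl and at 106, 103 and 132 FPKM in cKO. Its log2 fold change was -0.74 (SE 0.112, limma adjusted p = 0.0645), and -0.84 (limma adjusted p = 0.00539) without cKO replicate 3. Nrap, which takes part in myofibril assembly, was at 10.4, 7.03 and 10.5 FPKM in Ctrl and at 5.74, 5.12 and 5.99 FPKM in cKO, with a log2 fold change of -0.62 (SE 0.149, limma adjusted p = 0.154). Bves (-0.41), Lmo7 (-0.40), Xirp1 (-0.30) and Ank3 (-0.28) were the others, and the groups of Lmo7 and Xirp1 overlapped. Of 15 alternatives, Bves and Lmo7 passed the unadjusted line under 13, Ank3 under 10 and Xirp1 under 9. Without cKO replicate 3, Lmo7 was at -0.54 (limma adjusted p = 0.0407), and its most abundant transcript alone was at -2.16 (limma adjusted p = 0.268).

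**Figure D5:**
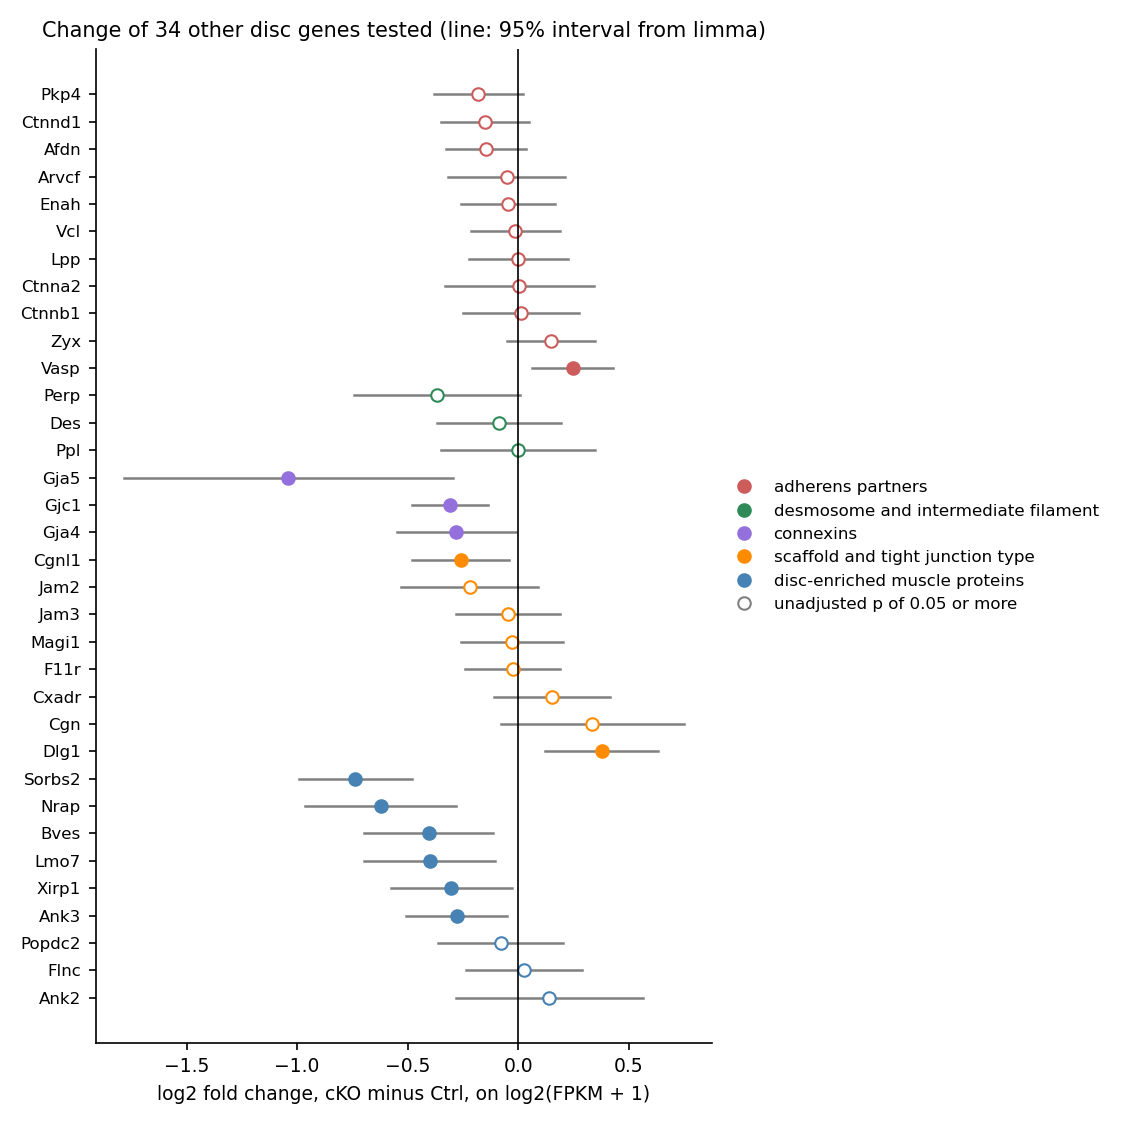
log2 fold change (cKO minus Ctrl, horizontal axis, on log2(FPKM + 1)) of the 34 tested genes of 46 other disc genes, coloured by class. Lines are 95% intervals from limma over 3 Ctrl and 3 cKO libraries, and open circles mark an unadjusted p of 0.05 or more. Of the 12 filled circles, 10 lie below 0 and 2, Vasp and Dlg1, above.

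In all, 12 of the 34 partner genes tested passed the unadjusted line, 10 lower and 2 higher, beside 15.0% of all genes, and none had an adjusted p under 0.05 in limma. By overlap alone, 5 of the 10 members had groups that did not overlap. Ctnna3, Pkp2, Dsp and Dsc2 were lower in every cKO library, beside 13.0% of all genes tested, and Ctnna1 was higher in every cKO library, beside 7.74%. The 10 members together summed to 457, 446 and 496 FPKM in Ctrl and to 430, 491 and 452 FPKM in cKO, so the total overlapped between the groups.

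Across the 6 libraries the members did not vary as 1 set. In log2 difference from the control mean, cKO replicate 1 was the lowest cKO library for Dsp (-0.40), Dsc2 (-0.55), Cdh2 (-0.37), Dsg2 (-0.21), Jup (-0.08) and Tjp1 (-0.08). In Ctnna3 (-0.91 in cKO replicate 2), Gja1 (0.37) and Ctnna1 (0.29) it was cKO replicate 2 that lay farthest from the controls. Erythroid genes held 21.1% of FPKM in cKO replicate 1 and a similar 20.1% in cKO replicate 3. Their part in the low values of cKO replicate 1 was not tested beyond a rescaling without these genes. Under it, Dsp had a log2 fold change of -0.21, Dsc2 of -0.22 and Cdh2 of -0.14.

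The genes whose pattern over the 6 libraries was most like that of a member are given as a description, by Pearson's r of log2(FPKM + 1). For Gja1 they were Tnfrsf1a (r = 0.991), N4bp3 (0.990) and Ctdspl (0.990). For Dsp they were Bphl (0.998), Etv6 (0.997) and Fam168a (0.995), and for Cdh2 Add3 (0.994), Stard10 (0.990) and Slc35g2 (0.990). With 6 libraries such values are common, and 180, 354 and 291 of the genes tested had an r above 0.9 with Gja1, Dsp and Cdh2.

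Measured genes that overlap members on the opposite strand were near 0 in the 3 cases read here. Lrrtm2, which lies within Ctnna1, and Lrrtm3 and Gm10118, which lie within Ctnna3, were listed at no more than 0.0674 FPKM in any library.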

How the data were processed

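RNA of embryonic hearts was depleted of ribosomal RNA and sequenced as strand-specific libraries, 3 for each group. The authors deposited 1 table of FPKM per transcript, 60776 rows with gene symbols. The submitters' processing notes name Bowtie2 2.2.8, HISAT2, StringTie 1.3.1, Cuffdiff 2.1.1 and the mouse build mm9, without their roles. The table gives no read counts, so absolute depth is unknown. Low values of genes with 1 transcript put the relative depth of the other libraries at roughly 1.149 to 1.625 times that of Ctrl replicate 1, and the summed FPKM were 454692 to 515952 per library.

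Here, rows were summed per gene and log2(FPKM + 1) was tested with limma 3.58.1 (lmFit and eBayes with a trend) in R 4.3.3, two-sided, over the 13262 genes that reached 1 FPKM in 3 or more of the 6 libraries, with Benjamini-Hochberg adjustment over all of them. The test was checked on simulated data. Transcript models are from GENCODE M21, in which all 28 rows of the members were found, and promoter windows, which 5 of the 10 members have, are from RefSeq. All 10 members were described. Partner genes were named where the unadjusted p was under 0.05 or where they are defining partners, and transcript rows where they held at least 10% of a gene, with a short Gja1 row and the upstream Ctnna3 row named as exceptions. The members and gene lists were chosen with earlier results of these data known, and 3 listed partner and marker genes are not reported here. Alternatives covered the added value, the filter, scaling, transcript choice, a replicate block and leaving out each library.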

Additional observations from a re-analysis of the deposited data

How the results depend on the processing

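The count of 2 members past the unadjusted line of 0.05 was 4 with no filter (2635 of 22161 genes), 5 relative to the cardiomyocyte markers (5261 of 13262 genes), 3 with the median of ratios scaling (Ctnna1 added, limma unadjusted p = 0.0276, 2010 genes), 3 with the rescaling without erythroid genes (Ctnna1 added, 1991 genes) and 4 with transcript rows tested singly (2086 of 20370 rows), an alternative chosen after seeing the data, and it ranged from 2 to 4 when single libraries were left out (1216 to 2166 genes). The count past an adjusted p of 0.05, 0 otherwise, was 1 relative to the cardiomyocyte markers, where 918 of 13262 genes passed, and ranged from 0 to 1 over the fits that left out a library, with 1 (Ctnna3) without cKO replicate 3. Ctnna3 was lower with an unadjusted p under 0.05 under all 15 alternatives (log2 fold change -0.90 to -0.39, limma adjusted p 0.0478 to 0.366), and Pkp2 under 12 of 15. Pkp2 lost the line with its most abundant transcript alone (-0.16) and without Ctrl replicate 3. Relative to the cardiomyocyte markers, a scale on which the median of all genes was 0.297, the sign turned for Dsp (0.0900), Pkp2 (0.0831), Jup (0.305), Dsg2 (0.251), Dsc2 (0.0756), Cdh2 (0.163), Gja4 (0.0374), Gjc1 (0.00737), Cgnl1 (0.0573), Xirp1 (0.0152), Ank3 (0.0395), Ctnnd1 (0.167), Vcl (0.305) and Des (0.231), as follows from the lower markers in cKO. Values near 0 also turned with the median of ratios scaling (Jup 0.0237, Vcl 0.0245), with rescaling without erythroid genes (Jup 0.00564, Vcl 0.00611) and with the most abundant transcript (Dsg2 0.0202). With single libraries left out, the value ranged across 0 for Jup (-0.0594 to 0.0660), Dsg2 (-0.108 to 0.00426), Tjp1 (-0.0154 to 0.104), Ctnnb1 (-0.0900 to 0.0688), Vcl (-0.0581 to 0.0573) and Des (-0.171 to 0.0298).

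The replicate numbers were not taken to pair the libraries, since they name different pools of embryos. The correlations of same-numbered deviations were 0.215, 0.108 and 0.0892, and those of unlike numbers -0.168 to 0.0488. When the number entered the fit as a replicate block, 3 members passed the unadjusted line (Dsp as well, limma unadjusted p = 0.0459), where 2217 of all genes did and 1991 without the block, and 4 of all genes passed an adjusted p of 0.05, where 11 did without the block. Each library correlated best with its own number, a hint from the data and not from the design. Of all genes, 269 passed that line without cKO replicate 3 and 119 without cKO replicate 2. Ctnna1 passed the unadjusted line under 5 of 15 alternatives and Dsp under 4.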
